A study of Drosophila melanogaster with 12 samples.

Results

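Wing imaginal discs of Drosophila melanogaster, the epithelial sacs of the larva from which the adult wing and dorsal thorax form, regrow after part of their tissue has died. The genes described here are 238 genes whose transcripts were higher in regenerating than in undamaged discs at 15 h after the induction of apoptosis. At 0 h and 25 h their values of FPKM + 1 in the 2 kinds of disc lay within 1.5 times of each other. The genes were chosen by that pattern. A gene had to reach 3 FPKM in all 6 groups and have a log2 ratio of regenerating over control of at least 0.9 at 15 h. At 0 h and at 25 h its log2 ratio had to lie between -0.585 and 0.585, within 1.5 times. The ratios were taken of FPKM + 1, so in FPKM itself some low members differed by a little more than 1.5 times. Among the 17158 genes listed, 6338 reached 3 FPKM in every group. Of these, 243 (3.83%) had the full pattern. The rule leaves out some genes by name, as it does cyclin, Mcm and ribosomal protein genes in general, and this removed 5 of the 243: fz3, eyg, mRpL1, mRpS30 and mRpS29. Since the values at all 3 times chose the genes, their ratios are given as a description and carry no test.

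FPKM is the number of sequenced fragments scaled to transcript length and library size. All ratios are log2 of (FPKM + 1) in regenerating discs over (FPKM + 1) in control discs, a scale that understates the change of low genes. The groups were regenerating discs at 0, 15 and 25 h and control discs at 0, 15 and 25 h, all from larvae of the third instar raised on standard food. Cell death was induced in the larvae that gave the regenerating discs and not in those that gave the controls. The labels call the 2 kinds of disc separate genotypes and name no allele, driver or death gene, so which cells of the disc died is not known from them. Each group held 2 libraries of 40 pooled discs, 12 libraries in all, but the values deposited are 1 merged FPKM per gene and group. No spread between replicates could be computed, no difference has a replicate check, and read depth is unknown.

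The 26 epithelial marker genes of the wing disc, among them nub, vg and ap, were above 0 in every group. The FPKM of the median measured gene was not equal between the 2 kinds of disc: its ratio was 0.48 at 0 h, 0.39 at 15 h and 0.08 at 25 h. Median-of-ratios scaling, which sets the typical gene equal in all columns, removed most of that shift and left ratios of -0.02, 0.02 and 0.03. The ratios below are given as deposited and stand on top of that shift. The column of control discs at 0 h carries fewer decimals than the other 5, and values in those 5 had lost decimal points that were restored from the values themselves, in 105 to 123 of the 238 members per column.

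The largest group of known role among these genes serves the making of ribosomes. Ribosomal RNA is transcribed by RNA polymerase I in the nucleolus, where helper proteins cut, modify and fold it and assemble it with ribosomal proteins before the subunits leave through nuclear pores. In growing fly tissue this output is known to be raised by the transcription factor Myc and by Tor signalling. Other members copy DNA, separate chromosomes, cut and splice messenger RNA, charge transfer RNA or make energy in mitochondria.

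At 15 h the ratio of the members ranged between 0.90 and 1.53, with a median of 1.02, against a median of 0.39 over all measured genes. At 0 h their median was 0.41, below the 0.48 of all measured genes, and 82 of 238 lay above it. At 25 h their median was 0.33, against 0.08 of all measured genes, and 214 of 238 lay above it. Most members were thus somewhat higher in regenerating discs at these times too. Their ratio was above 0 in 234 of 238 at 0 h and in 222 of 238 at 25 h, against 91.2% and 57.2% of measured genes. The limit of 0.585 lies just above the median gene at 0 h and far above it at 25 h, so the rule itself bears on where the members stand relative to it at these times. Relative to the median measured gene the median member stood at -0.07, 0.63 and 0.25 at the 3 times. The ratio at 15 h minus the mean of the ratios at 0 h and 25 h had a median of 0.70 among the members, against 0.10 over all measured genes, and was largest in CG4619 at 1.44. In whole discs, more cells that express a gene and more RNA per cell cannot be told apart.

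**Figure D1:**
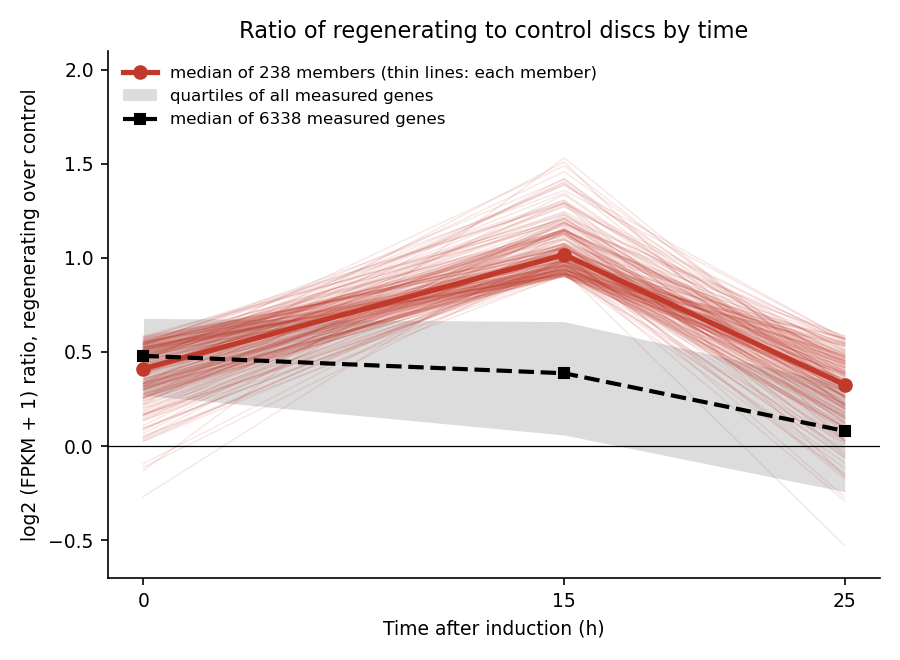
Log2 ratio of (FPKM + 1) of regenerating over control discs (y axis) at 0, 15 and 25 h (x axis). Thin red lines are the 238 members, the thick red line their median (0.41, 1.02 and 0.33), the dashed black line the median of 6338 measured genes (0.48, 0.39 and 0.08) and the grey band the quartiles of all measured genes. Each value is 1 merged column over another.

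A ratio of 0.9 or more at 15 h was reached by 587 measured genes (9.26%). Of these 587, 215 were past the limit at 0 h only, 62 at 25 h only, 63 at both times and 4 lay below a limit, which left the 243. The members just inside the limit at 15 h were Kaz, Cbp80 and Las, each at 0.90, and the genes just outside were Mapmodulin, mst and AsnRS, the asparaginyl-tRNA synthetase, which also round to 0.90. At 0 h COX7A was just inside its limit at 0.58 and Hpr1, an mRNA export factor, just outside at 0.59. At 25 h alphaTub84D was just inside at 0.58 and Elp5 just outside at 0.59. No gap in the values separated these members from the genes just outside.

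By the same limits 218 genes were higher only at 0 h and 30 only at 25 h, and 6, 6 and 63 genes were lower only at 0 h, 15 h and 25 h. After median-of-ratios scaling 15, 38 and 47 genes were higher only at 0 h, 15 h and 25 h, and 46, 36 and 93 genes were lower only at these times. At 15 h the counts higher and lower were thus 38 and 36 after scaling, against 243 and 6 as deposited. The number of genes with the pattern therefore depended on the scaling. The scaled ratio of the members at 15 h had a median of 0.64 and was at least 1.5 times in 165 of 238, as it was in 6.75% of measured genes. It was at least 0.9 in 1.18% of measured genes and in 20 members, which were CG4619, CG32281, CG5800, CG18178, PolE2, wcd, l(3)72Dn, CG33158, NO66, CG2875, Nup50, kra, CG3335, ais, mod, Tango6, hng3, Nmt, CG1785 and CG30349.

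The highest ratio belonged to CG4619, a gene given only by its identifier here (FBgn0032166, chromosome 2L, 9938863 to 9943058, in Ensembl BDGP6.54, the assembly named dm6 in the submitters' notes). It had 4.90, 13.2 and 9.64 FPKM in regenerating discs at 0, 15 and 25 h, against 5.45, 3.92 and 7.52 FPKM in control discs. The regenerating value at 15 h was the highest of the 6 and the control value at 15 h the lowest, so the groups crossed between 0 h and 15 h. CG32281, on chromosome 3L at 3169375 to 3170913, had 4.99, 12.1 and 7.24 FPKM at 0, 15 and 25 h in regenerating discs and 3.76, 3.62 and 7.07 FPKM in control discs. Its values in the 2 kinds of disc were almost equal again at 25 h, which gave it the second largest excess of the 15 h ratio over the mean of the other times. CG5800, on the X chromosome at 17636281 to 17639003, had 11.9, 21.8 and 17.3 FPKM in regenerating discs, against 8.48, 7.11 and 13.5 FPKM in control discs, at 0, 15 and 25 h. CG18178 had a ratio of 1.46, CG2875 1.39 and CG33158 1.39 at 15 h, and no role was assigned here to any of these 3.

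**Figure D2:**
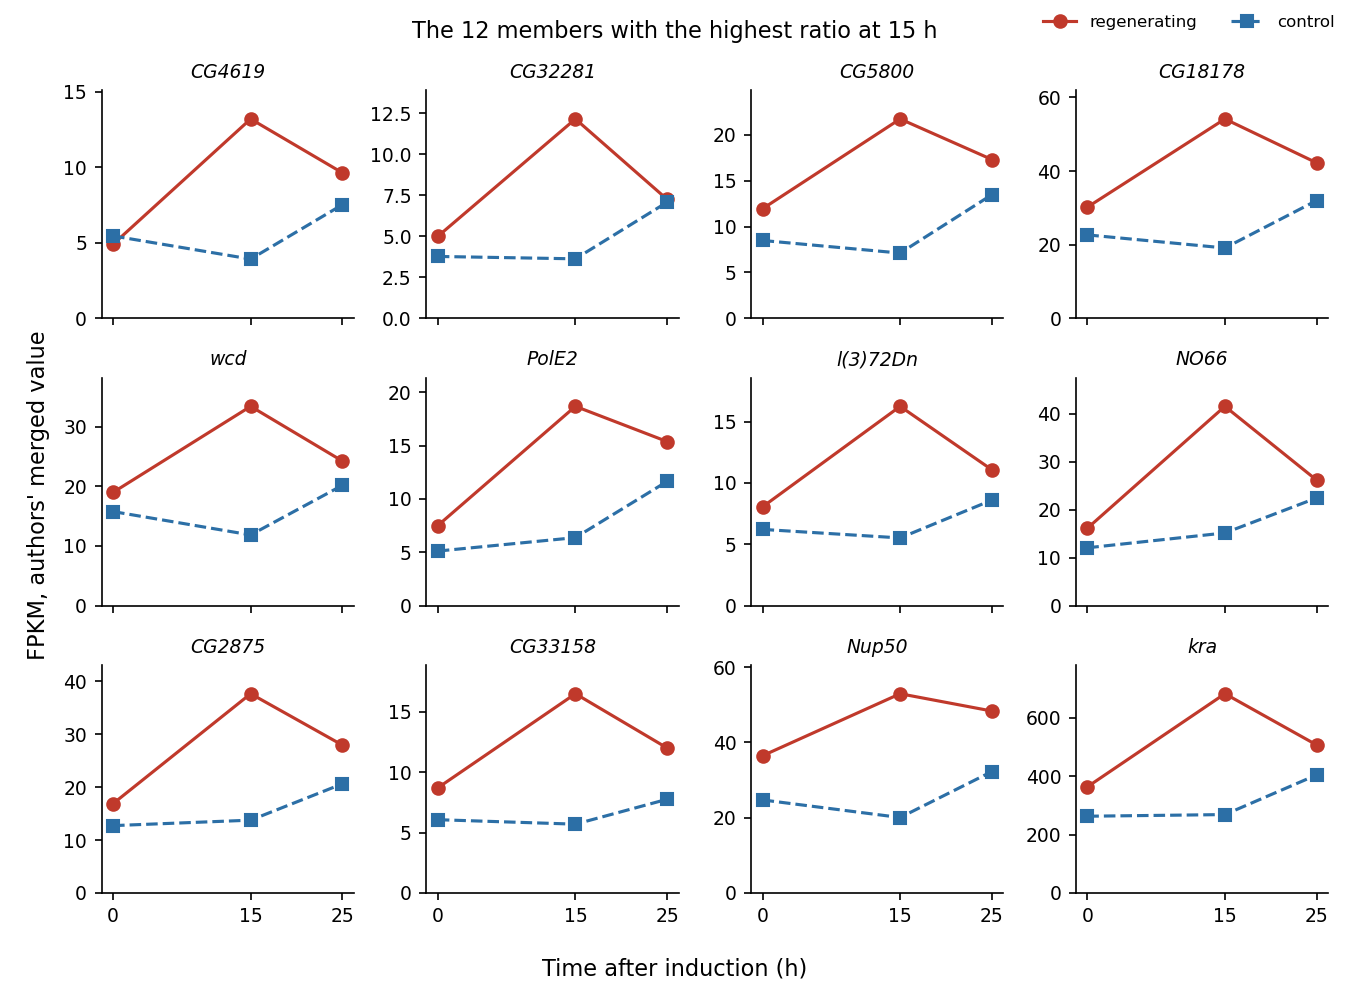
FPKM (y axis, a separate scale per panel starting at 0) at 0, 15 and 25 h (x axis) of the 12 members with the highest ratio at 15 h. Red circles are regenerating and blue squares control discs, 1 merged value each. In all 12 panels the regenerating value at 15 h is the highest of the 6.

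A ratio can be high at 15 h because the regenerating value is high or because the control value is low, and the members were read for both. In regenerating discs 203 of 238 members (85.3%) had their highest value of the 3 times at 15 h, against 50.4% of measured genes. In control discs 119 of 238 (50%) had their lowest value at 15 h, against 16.2% of measured genes. In 92 members (38.7%) both held, in 111 (46.6%) only the regenerating peak, in 27 (11.3%) only the control trough and in 8 (3.36%) neither. Among all measured genes these shares were 4.12%, 46.3%, 12.1% and 37.5%. The rule used these same columns, so nothing is read from the difference to the background. The difference between 15 h and 0 h had a median among the members of 0.68 in regenerating discs and 0.00 in control discs, beside 0.24 and 0.30 over all measured genes. The difference between 15 h and 25 h had a median of 0.24 in regenerating discs and -0.51 in control discs, beside 0.12 and -0.18 over all measured genes.

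Large steps were few. At 15 h the regenerating FPKM + 1 was at least 1.5 times above both other times in 15 members (6.3%), against 4.81% of measured genes. The control FPKM + 1 was at least 1.5 times below both in 2 members (0.84%), against 0.205%. In control discs 237 of 238 members stood lower at 15 h than at 25 h, as did 74.9% of measured genes. After median-of-ratios scaling the balance moved to the control side, with 150 members highest at 15 h in regenerating discs and 214 lowest at 15 h in control discs, against 29.8% and 35.3% of measured genes.

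**Figure D3:**
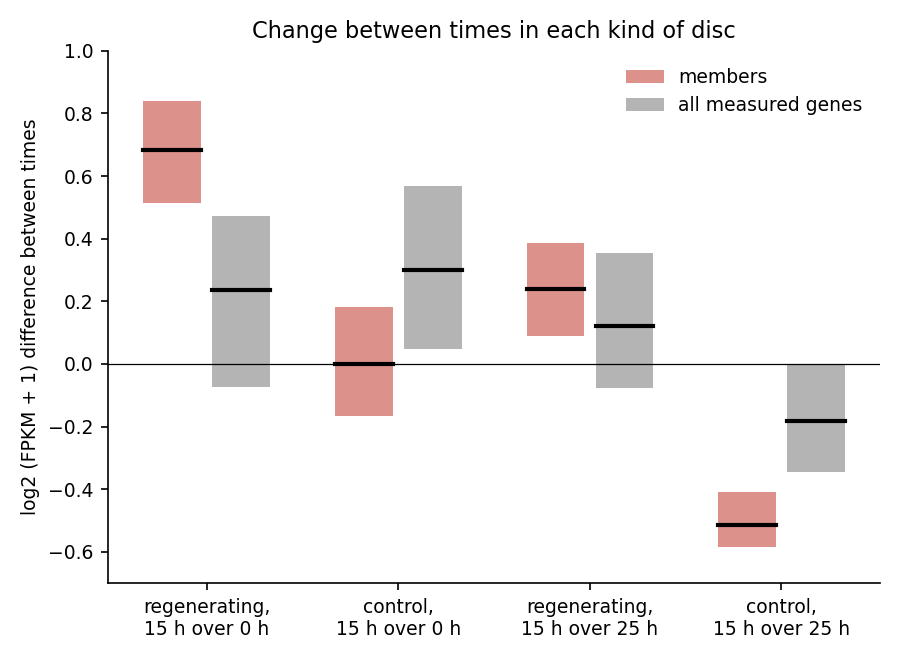
Difference in log2 (FPKM + 1) between 15 h and 0 h or 25 h (y axis) within regenerating and within control discs. Bars span the quartiles and black lines mark the medians, in red for the 238 members (0.68, 0.00, 0.24 and -0.51 from left to right) and in grey for 6338 measured genes (0.24, 0.30, 0.12 and -0.18).

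The regenerating value at 15 h exceeded both other times by most in heph, CG5645, nxf2, CG30467 and Tango6. Transcripts of heph, the polypyrimidine tract-binding protein that regulates splicing (chromosome 3R, 31846987 to 32015520), gave 58.2, 125 and 56.1 FPKM in regenerating discs at 0, 15 and 25 h, against 40.6, 63.8 and 68.8 FPKM in control discs. The regenerating value stood alone at 15 h, while the control value was higher at 15 h and 25 h than at 0 h, so that the ratio was 0.96 at 15 h and -0.29 at 25 h. CG5645 had a ratio of 0.93 at 15 h and CG30467 one of 1.02. Transcripts of nxf2, a relative of the mRNA export receptor known from silencing of transposons in the fly ovary, had 8.25, 18.8 and 10.8 FPKM at 0, 15 and 25 h in regenerating discs and 5.62, 7.97 and 10.4 FPKM in control discs. Tango6, named in a screen for Golgi organisation, had 7.11, 12.4 and 6.27 FPKM in regenerating discs, against 4.54, 4.45 and 7.12 FPKM in control discs, at 0, 15 and 25 h and was below control at 25 h.

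The control value at 15 h lay farthest below both other times in mEFTu1, CG10657, COX6B, hng3 and PolD2. mEFTu1, the elongation factor that brings transfer RNA to mitochondrial ribosomes, had 89.3, 84.7 and 76.5 FPKM in regenerating discs at 0, 15 and 25 h, against 72.5, 39.6 and 70.1 FPKM in control discs. Its regenerating value at 15 h lay below that at 0 h, so its ratio of 1.08 came with a low control value. COX6B, a nuclear-encoded subunit of cytochrome c oxidase, had 328, 350.3 and 366 FPKM at 0, 15 and 25 h in regenerating discs and 286, 183 and 266 FPKM in control discs. PolD2, a small subunit of DNA polymerase delta, had 22.6, 36.4 and 34.7 FPKM in regenerating discs, against 24.2, 16.97 and 29.6 FPKM in control discs, at 0, 15 and 25 h. In mEFTu1 and COX6B the regenerating value at 15 h was not the highest of the 3 times, and in PolD2 it was only slightly above that at 25 h. CG10657 had a ratio of 1.10 at 15 h and hng3 one of 1.29.

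Roles could be given to 143 of the 238 members, in 10 groups, from general knowledge and with the values known. The largest group was the nucleolus and ribosome biogenesis with 32 members. Their ratios at 15 h had a median of 1.05 and ranged between 0.93 and 1.42. At 15 h 27 of the 32 had their highest regenerating value and 16 their lowest control value, against 22 and 31 after scaling. Over all 238 members these shares were 85.3% and 50% as deposited. Over all measured genes they were 50.4% and 16.2%, and 29.8% and 35.3% after scaling. The rule used these same columns, so nothing is read from such counts by role. Members beyond the naming rule are described by role and were picked with their values known. wcd (wicked), a protein of the U3 small nucleolar ribonucleoprotein that acts on ribosomal RNA (chromosome 2R, 16345838 to 16347500), had 18.98, 33.4 and 24.2 FPKM in regenerating discs at 0, 15 and 25 h, against 15.8, 11.8 and 20.2 FPKM in control discs. The control value dipped at 15 h while the regenerating value peaked, and the 2 lay closer together at 0 h and 25 h. l(3)72Dn, given as UTP4 among its synonyms, after the yeast protein of the small subunit processome, had 8.05, 16.3 and 11.1 FPKM at 0, 15 and 25 h in regenerating discs and 6.21, 5.52 and 8.60 FPKM in control discs. NO66, whose human counterpart is a nucleolar oxygenase that modifies a ribosomal protein, had 16.1, 41.5 and 26.1 FPKM in regenerating discs, against 12.03, 15.1 and 22.4 FPKM in control discs, at 0, 15 and 25 h. mod (modulo), a nucleolar protein resembling nucleolin, was one of the more abundant members of the group, with 128, 261 and 197 FPKM in regenerating discs at 0, 15 and 25 h, against 109.8, 103 and 160.0 FPKM in control discs.

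RNA polymerase I itself was represented by Polr1A, its largest subunit, with 11.2, 15.2 and 12.3 FPKM at 0, 15 and 25 h in regenerating discs and 8.65, 7.24 and 11.4 FPKM in control discs. TAF1B, a factor for the start of polymerase I transcription, had a ratio of 0.94 and nclb, a nucleolar chromatin protein needed for ribosomal RNA synthesis, one of 0.93. With Polr1A at 0.98 these 3 lay near the lower limit of 0.9, below the median of the group. Nop60B, the pseudouridine synthase of the dyskerin family, was the most abundant of the group with 199, 314 and 276 FPKM in regenerating discs, against 142, 156 and 227 FPKM in control discs, at 0, 15 and 25 h. Nopp140, a nucleolar scaffold protein, had a ratio of 0.96.

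Helicases and GTPases that drive the assembly had ratios on both sides of the median of the group. The DEAD-box helicase ais, listed with the synonym Rok1, had 10.8, 16.04 and 10.3 FPKM in regenerating discs at 0, 15 and 25 h, against 7.05, 5.90 and 10.1 FPKM in control discs. Its relatives pit (pitchoune, a known Myc target) and CG9630, listed as DDX18 and DDX55, had ratios of 1.02 and 1.07. Ns3 and Ns2, GTPases of the nucleostemin family, had ratios of 1.246 and 1.15; for Ns3 the values were 21.4, 33.2 and 32.3 FPKM at 0, 15 and 25 h in regenerating discs and 15.2, 13.4 and 22.9 FPKM in control discs. Factors named by synonym after proteins of ribosome assembly in other species were CG8545 (NOP2) at 1.16, CG8939 (Spb1) at 1.18, CG2972 (NOB1) at 1.15 and CG2691 (RRP12) at 1.08. bys (bystin), needed for the small subunit, had a ratio of 1.06, and Noc2 and smid, which act on the large subunit, 1.02 and 1.04. Of the exosome, the complex that trims ribosomal RNA from its end, the members were Rrp45 at 1.03 and the nuclease Dis3 at 0.96.

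**Figure D4:**
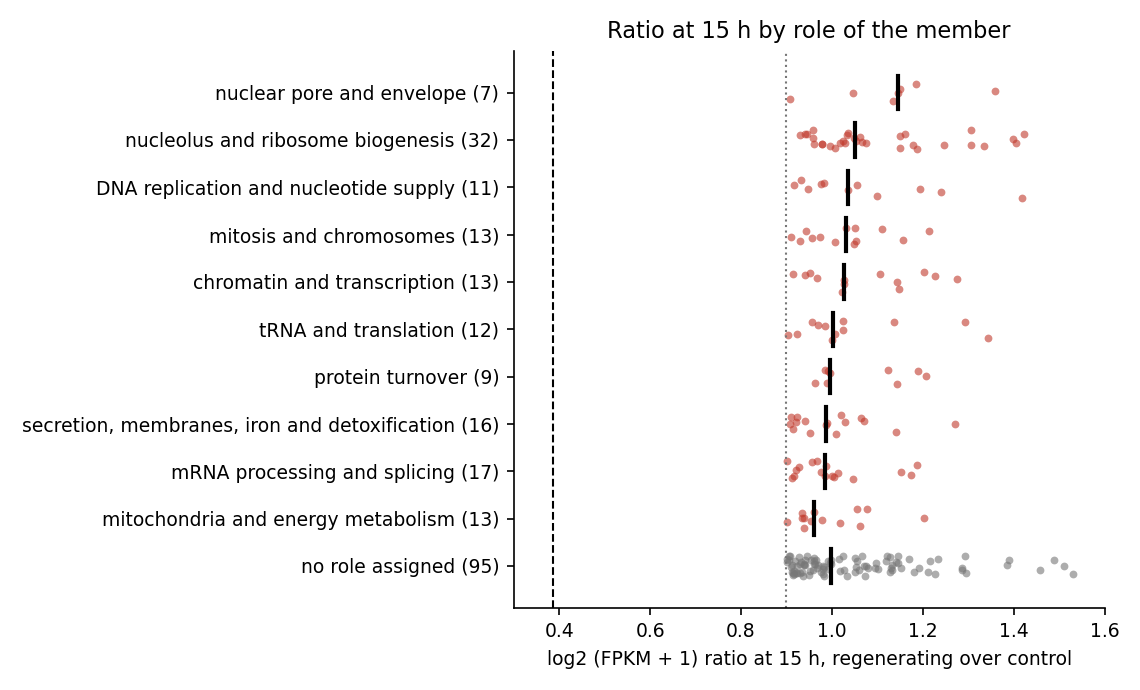
Log2 ratio of (FPKM + 1) at 15 h (x axis) of each member by assigned role (y axis, number of members in brackets). Points are genes, black bars medians, the dotted line the limit of 0.9 and the dashed line the median of all measured genes (0.39). Medians run between 0.96 (mitochondria and energy metabolism) and 1.15 (nuclear pore and envelope).

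The 7 nuclear pore and envelope genes followed, with the highest median of the 10 groups (1.15). Nup50, a nucleoporin of the nuclear basket that aids import (chromosome 2R, 8123036 to 8125058), had 36.4, 52.9 and 48.3 FPKM in regenerating discs, against 24.7, 20.03 and 32.2 FPKM in control discs, at 0, 15 and 25 h. Nup133 and Nup160, subunits of the scaffold complex of the pore, had ratios of 1.19 and 1.13, and Ndc1, which anchors the pore in the membrane, 1.15. RanGAP, which sets the direction of transport by making Ran hydrolyse GTP, had 73.3, 122 and 103 FPKM in regenerating discs at 0, 15 and 25 h, against 50.1, 54.4 and 84.03 FPKM in control discs. mbo, the fly Nup88, lay close to the limit at 0.91, and Ote (otefin), a protein of the inner nuclear membrane, had 1.05.

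DNA replication and nucleotide supply gave 11 members, 7 with their highest regenerating value and 8 with their lowest control value at 15 h, against 4 and 11 after scaling. Over all measured genes these shares were 50.4% and 16.2%, and 29.8% and 35.3% after scaling. PolE2, the second subunit of the leading-strand polymerase epsilon (chromosome 3L, 5895691 to 5897435), had 7.51, 18.7 and 15.4 FPKM at 0, 15 and 25 h in regenerating discs and 5.11, 6.38 and 11.7 FPKM in control discs. Regenerating discs were higher at each time, and control discs reached the level of the 15 h regenerating discs at no time. The catalytic and second subunits of the lagging-strand polymerase delta, PolD1 and PolD2, had ratios of 1.03 and 1.06, and PolA2, of the polymerase alpha that starts each strand, 0.95. DNAlig1, which joins the fragments, and Claspin, a checkpoint adaptor at the fork, had 0.98 and 0.92. Caf1-105, of the factor that deposits histones behind the fork, and Ssrp, of the histone chaperone FACT, had 1.24 and 1.19. For precursors, Ctps, the CTP synthase, had 39.8, 68.7 and 52.7 FPKM in regenerating discs, against 32.2, 31.5 and 41.7 FPKM in control discs, at 0, 15 and 25 h, and r-l, which completes the synthesis of UMP, had a ratio of 0.93.

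All 13 members with a role in mitosis had their highest regenerating value at 15 h, and 1 of the 13 had its lowest control value there. After median-of-ratios scaling these counts were 10 and 11 of 13, so that the control side depended on the scaling. Over all 238 members the shares were 85.3% and 50% as deposited. Over all measured genes they were 50.4% and 16.2%, and 29.8% and 35.3% after scaling. Ndc80, of the kinetochore that binds microtubules, had 14, 24.7 and 21.3 FPKM in regenerating discs at 0, 15 and 25 h, against 10.7, 11.4 and 17.1 FPKM in control discs. Mad1, of the spindle checkpoint, had a ratio of 1.05, and Cdc16 and ida, both of the anaphase-promoting complex, had 0.97 and 1.05. SMC3, a core subunit of cohesin, and Mau2, which helps load it, had 1.03 and 1.16. gammaTub23C and Grip75, of the ring that starts microtubules, had 1.21 and 0.91, and dgt5, of the augmin complex that branches them, 0.93. Wee1, the kinase that holds back entry into mitosis, had 11, 20.5 and 13.96 FPKM at 0, 15 and 25 h in regenerating discs and 8.01, 9.71 and 14.3 FPKM in control discs. Among tubulins, alphaTub84D was at 77.9, 194 and 183 FPKM in regenerating discs, against 64.6, 89.3 and 122 FPKM in control discs, at 0, 15 and 25 h, which is uncertain because near-identical tubulin genes may have shared its reads.

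Chromatin and transcription gave 13 members, all with their highest regenerating value and 4 with their lowest control value at 15 h, against 9 and 11 after scaling. Over all measured genes 50.4% had their highest regenerating value and 16.2% their lowest control value at 15 h as deposited, against 29.8% and 35.3% after scaling. Several belong to a single known assembly, the Tip60 histone acetyltransferase complex: rept (reptin, an AAA ATPase) at 1.28, Bap55 (an actin-related protein shared with the Brahma complex) at 1.20, DMAP1 at 1.03 and the acetyltransferase Tip60 itself at 0.92. They were noticed after their values had been seen, and no count over the whole complex was made. For rept the values were 43.5, 81.6 and 70.5 FPKM in regenerating discs at 0, 15 and 25 h, against 33.3, 33.1 and 56.3 FPKM in control discs. HDAC1, the histone deacetylase also called Rpd3, had 67.6, 160.3 and 126 FPKM at 0, 15 and 25 h in regenerating discs and 46.3, 82.4 and 103 FPKM in control discs. mof, the acetyltransferase of the dosage compensation complex, had 5.27, 8.68 and 5.40 FPKM in regenerating discs, against 3.71, 3.39 and 5.43 FPKM in control discs, at 0, 15 and 25 h, and its 2 values at 25 h were nearly equal. Art1, a protein arginine methyltransferase, had a ratio of 1.23 and wds, the fly WDR5, one of 1.03.

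Messenger RNA processing gave 17 members. The machinery that cuts the end of the transcript and adds the poly(A) tail was present with its nuclease Cpsf73 at a ratio of 1.19, Cpsf160 at 1.17, CstF50 at 1.05 and Fip1 at 0.91. For Cpsf160 the values were 5, 12 and 7.55 FPKM in regenerating discs at 0, 15 and 25 h, against 3.87, 4.76 and 6.85 FPKM in control discs. Splicing factors were crn (crooked neck) at 1.15, Spx, with the synonym SF3B4, at 1.01, Srp54 at 1.0, Slu7 at 0.98 and Sf3b2 at 0.93, and Gem2, which helps build the splicing particles, had 0.98. IntS9, of the Integrator complex, and Larp7, of the 7SK particle, had 1.0 and 0.99. drosha, the nuclease that starts microRNA processing, was low, with 5.97, 9.32 and 7.14 FPKM at 0, 15 and 25 h in regenerating discs and 4.31, 4.45 and 5.76 FPKM in control discs.

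The 12 members of tRNA and translation held the gene with the highest FPKM after ATPsynC. kra (krasavietz), a regulator of translation initiation, had 364, 683 and 507 FPKM in regenerating discs, against 263, 269 and 405 FPKM in control discs, at 0, 15 and 25 h. Both kinds of disc held it at a high level and the regenerating value at 15 h exceeded all others. Of the aminoacyl-tRNA synthetases, AlaRS had a ratio of 0.98, IleRS 0.92 and TyrRS 0.90, close to the limit. Enzymes that modify transfer RNA were Elp3 at 1.14, Nsun2 at 1.03 and Pus7 at 0.96. nero, the hydroxylase that activates eIF5A, had 1.0, and Nmt, which adds myristate to new proteins, had 41.5, 80.5 and 64.8 FPKM in regenerating discs at 0, 15 and 25 h, against 33.1, 32.3 and 47.5 FPKM in control discs. Clbn and HBS1, both of quality control on stalled ribosomes, had 1.03 and 0.97, and Srp68, of the particle that brings ribosomes to the endoplasmic reticulum, 1.01.

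Protein turnover gave 9 members, all with their highest regenerating value at 15 h and 2 with their lowest control value there, against 8 and 9 after scaling. Over all measured genes these shares were 50.4% and 16.2%, and 29.8% and 35.3% after scaling. CSN7 and CSN3, subunits of the COP9 signalosome that acts on cullin ubiquitin ligases, had ratios of 1.21 and 1.14, and Cand1, which exchanges the receptors of these ligases, 0.98. pic (piccolo), the fly DDB1 and an adaptor of a cullin ligase, had 25.3, 45.1 and 32.2 FPKM at 0, 15 and 25 h in regenerating discs and 17.03, 19.2 and 25.5 FPKM in control discs. Rpn7, of the lid of the proteasome, had 97.9, 188 and 152 FPKM in regenerating discs, against 75.2, 85.6 and 109.8 FPKM in control discs, at 0, 15 and 25 h, and ref(2)P, the fly p62 that carries cargo to autophagy, had a ratio of 0.99.

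Mitochondria and energy metabolism gave 13 members. The lowest control value was at 15 h in 12 of 13 and the highest regenerating value at 15 h in 9, against 12 and 4 after scaling. Over all measured genes these shares were 16.2% and 50.4%, and 35.3% and 29.8% after scaling. As in the DNA replication group, more members had their lowest control value than their highest regenerating value at 15 h as deposited, and after scaling this held in all 10 groups. The median ratio of 0.96 was the lowest of the 10 groups. ATPsynC, the membrane ring subunit of ATP synthase (chromosome 3R, 31216145 to 31219630), was the most abundant member of all, with 974, 1238 and 1176 FPKM in regenerating discs at 0, 15 and 25 h, against 700.3, 646 and 902 FPKM in control discs. COX7A, of cytochrome c oxidase, had 357, 485 and 393 FPKM at 0, 15 and 25 h in regenerating discs and 238, 210.2 and 312 FPKM in control discs. Of glycolysis, Pfk, Ald1 and Pgi had ratios of 1.06, 1.02 and 0.95, and Pdha, of the pyruvate dehydrogenase that feeds the citric acid cycle, 1.06. mRRF1, which recycles mitochondrial ribosomes, and Las, which makes lipoic acid, had 0.94 and 0.90. Whether this group differs from the others in its control values was not tested.

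The remaining 16 members with a role concern secretion, membranes, iron and detoxification, with a median ratio of 0.99. Ance, a secreted peptidase related to angiotensin-converting enzyme, had 249, 301 and 236 FPKM in regenerating discs, against 209, 144 and 166 FPKM in control discs, at 0, 15 and 25 h. Fer2LCH, a ferritin chain that stores iron, had 134, 179 and 170.2 FPKM in regenerating discs at 0, 15 and 25 h, against 91.7, 88.5 and 123 FPKM in control discs. GstT3 and GstO2, glutathione transferases, had ratios of 1.27 and 1.02, and Vps29, Exo70 and Ykt6, of vesicle traffic, 1.03, 0.94 and 0.91.

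The same processes were also counted over 15 gene lists, which were drawn up with earlier results of these data known. Of 58 measured genes of ribosome biogenesis 14 were members (24.1%), against 238 of 6338 measured genes (3.76%). At 15 h 18 of the 58 had a ratio of 0.9 or more, 2 after median-of-ratios scaling, and none one of -0.9 or less. Their median ratio stood -0.11 from that of all measured genes at 0 h, 0.39 above it at 15 h and 0.19 above it at 25 h. The 4 that passed 0.9 at 15 h without being members were Fib (fibrillarin), nop5, Mtr3 and Noc3. DNA replication had 8 members among 54 (14.8%) and 23 genes past 0.9, 4 after scaling, with a median 0.14, 0.44 and 0.15 above that of all measured genes at 0, 15 and 25 h. Its other 15 genes past 0.9, among them PCNA, dpa and Mcm genes, all lay outside a limit at 0 h or 25 h. None of them was left out by name alone. Nuclear pore and transport genes had 6 members among 57 (10.5%) and 13 past 0.9, 3 after scaling, with a median 0.01, 0.26 and 0.10 above.

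Mitotic genes had 8 members among 91 (8.79%), splicing genes 5 among 58 (8.62%) and aminoacyl-tRNA synthetases 3 among 34 (8.82%). Of all measured genes 3.76% were members. A ratio of 0.9 or more at 15 h was reached by 15 of the 91, 9 of the 58 and 5 of the 34, where 9.26% of all measured genes passed. After scaling 1 mitotic gene, no splicing gene and no synthetase passed 0.9, where 1.18% of all measured genes passed. Of those 34 synthetases 31 lay above the median measured gene at 15 h. Nucleotide synthesis, mitochondrial import and translation, and chromatin each held 2 or 3 members, namely 2 of 31, 2 of 39 and 3 of 62, and secretion 1 of 53. No member came from DNA repair (38 measured), translation factors (43), cytosolic chaperones (24), general transcription factors and mediator (80) or signalling and growth pathways (62). With 3.76% of measured genes being members, lists of this size would hold few in any case. In the signalling list fz3 had the full pattern and was left out by name. The gene yki, barred by name too, did not have the full pattern. Of the signalling list 4 genes passed 0.9 at 15 h, Stat92E, fz3, yki and wgn, and its median stood -0.04 from that of all measured genes at 15 h and -0.25 at 25 h. In the splicing, chromatin, secretion and signalling lists 1 gene each had a ratio of -0.9 or less at 15 h.

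**Figure D5:**
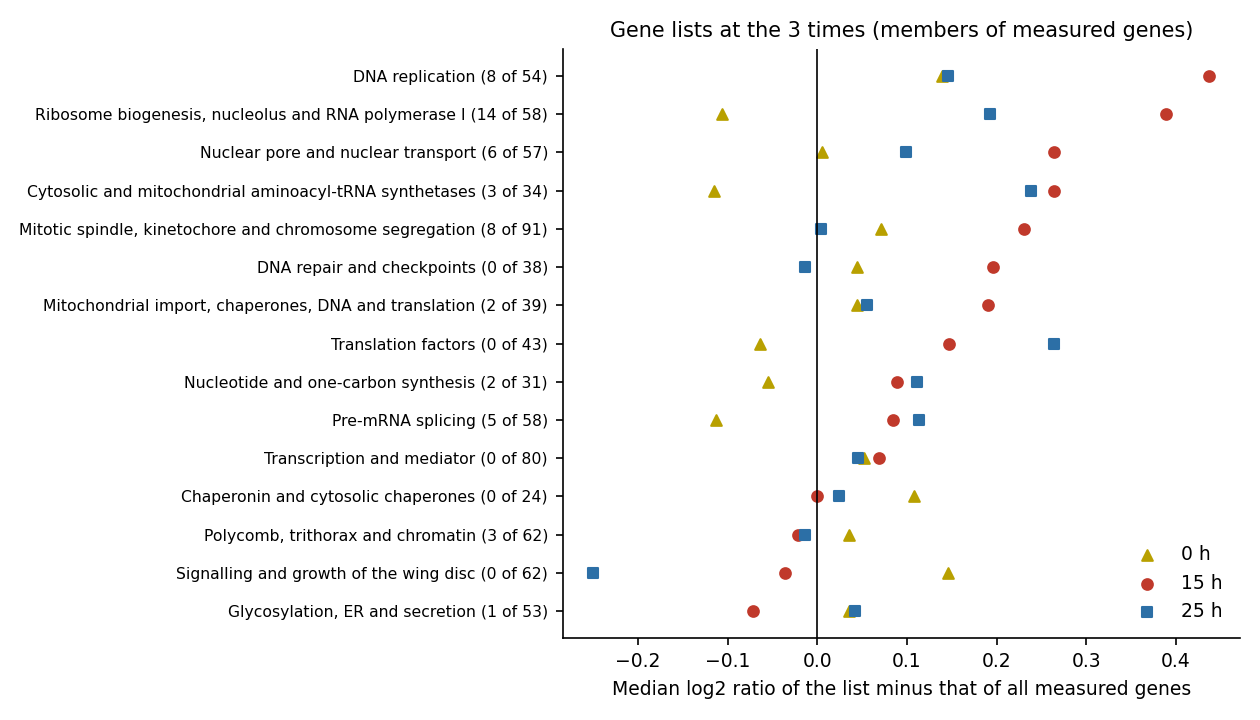
Median log2 ratio of regenerating over control discs of each of 15 gene lists minus the median of all measured genes (x axis), at 0 h (triangles), 15 h (circles) and 25 h (squares). Brackets give the members among the measured genes of the list. DNA replication (0.44) and ribosome biogenesis (0.39) stand farthest to the right at 15 h.

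Markers of other cell types also differed between the groups, and no marker of any of the 6 lists was a member. Only markers with at least 3 FPKM in every group could be members. These were 3 of 19 for fat body, 5 of 19 for hemocytes and 7 of 14 for muscle precursors. They were 8 of 9 for trachea, 0 of 9 for neurons and glia and 26 of 26 for disc epithelium. With 3.76% of measured genes being members, lists of this size would hold few in any case. Summed over 19 fat body markers, the levels were 562, 218 and 795 FPKM in regenerating discs at 0, 15 and 25 h, against 542, 97.3 and 123 FPKM in control discs, with Yp1 and Yp2 at 0 in every group. Summed over 19 hemocyte markers, they were 176, 197 and 217 FPKM in regenerating discs, against 106, 124 and 112 FPKM in control discs, with NimC4, lz and gcm at 0 in every group. The sums for 14 muscle precursor markers were 90.6, 101 and 113 FPKM in regenerating discs, against 74.9, 74.0 and 66.5 FPKM in control discs. Those for 9 tracheal markers were 545, 675 and 731 FPKM in regenerating discs, against 378, 509 and 559 FPKM in control discs. In every group verm and rtv were among the highest tracheal markers, and how specific they are to trachea in these discs was not tested. The 9 neuron and glia markers summed to at most 6.90 FPKM in regenerating discs and 7.58 FPKM in control discs. The 26 disc epithelium markers summed to 515, 771 and 539 FPKM in regenerating discs, against 382, 591 and 647 FPKM in control discs. In the fat body sum Obp99a had 129, 44.9 and 49.9 FPKM in regenerating discs at 0, 15 and 25 h, against 264, 71.65 and 51.2 FPKM in control discs. Obp99b, the highest of these markers in regenerating discs, went the other way. It had 191, 47.5 and 267 FPKM in regenerating discs, against 150.2, 1.92 and 20.8 FPKM in control discs. SPARC, which many cell types express, made up much of the hemocyte sum. Without it the 18 others summed to 64.98, 82.1 and 82.8 FPKM in regenerating discs, against 54.5, 78.0 and 62.4 FPKM in control discs, at the 3 times. At 15 h Hml, He, NimC1, eater and Pxn, picked after their values were seen, were lower in regenerating discs. They were at 0.40, 2.21, 1.51, 0.965 and 2.39 FPKM, against 0.82, 3.89, 1.78, 1.90 and 3.27 FPKM in control discs. Of the same list glec, srp and Sr-CI were lower too. Ppn, crq, Col4a1, vkg, PPO1, PPO2, PPO3 and SPARC were higher, with Ppn at 28.6 against 25.8 FPKM and crq at 17.0 against 13.8 FPKM. The part of these cell types in the members' ratios was not tested.

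The median level of the members at 15 h was 32.6 FPKM in regenerating discs and 14.8 FPKM in control discs, against 28.8 and 20.9 FPKM over all measured genes. In regenerating discs at 15 h 11 members (4.62%) were under 10 FPKM, 201 (84.5%) between 10 and 100 and 26 (10.9%) at 100 or more, against 13.6%, 67.6% and 18.8% of measured genes. Coordinates were found for 233 members, of which 232 code for protein, the other being the antisense RNA asRNA:CR45806, whose reads cannot be told apart from those of its partner gene if strand was not used. The X chromosome held 41 of them (17.6%, against 16.6% of measured genes) and the arms 2L, 2R, 3L and 3R 32, 48, 51 and 60, which is 13.7%, 20.6%, 21.9% and 25.8%, against 17.1%, 20.5%, 19.8% and 24.8% of measured genes. Their exons spanned a median of 2122 bases, against 2007 bases for all measured genes. Only 4 pairs of members lay side by side: AlaRS with CG13392, dgt5 with CG8545, TyrRS with CG33158 and dod with peng. The spans of dgt5 and CG8545 overlap, as do those of dod and peng. In all, 8 members (3.43%) had a member as neighbour, against 4.78% of measured genes.

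In 95 of the 233 (40.8%, against 39.7% of measured genes) an exon overlapped that of a gene on the other strand, and in 23 (9.87%, against 9.19%) that of a gene on the same strand. No source used here says whether the counting used strand, so the values of such genes are uncertain. Among the members given above they were CG4619, CG2875, Nup50, CG3335, Tango6, CG1785, Cpsf73, Cpsf160, Mau2, CG2972, Ns2, nxf2, Ndc1, mof, Elp3, Nup160, Rpn7, asRNA:CR45806, CG10657, Ctps, PolD2, Mad1, PolD1, Rrp45, Vps29, Nsun2, CG30467, GstO2, Ald1, Noc2, Fer2LCH, Wee1, Nop60B, Srp68, IntS9, ref(2)P, Larp7, Slu7, DNAlig1, Polr1A, Cdc16, Nopp140, Dis3, Pus7, HDAC1, TAF1B, peng, Exo70, ATPsynC, dod, COX6B, r-l, CG5645, Sf3b2, Tip60, Grip75, Kaz and Cbp80. The 95 members without a role, among them the 4 with the highest ratios, were placed in none of the 10 groups, and 5 of them carry no symbol.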

How the data were processed

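The measurements are RNA-seq of poly(A) RNA from 12 wing disc libraries, grouped by their sample titles into 6 groups of 2. The authors deposited FPKM values for 17158 FlyBase gene identifiers, merged to 1 column per group, by a method that no source used here states. STAR 2.4.0j, RSEM and the build dm6 are named in the submitters' processing notes. The table holds no counts, so depth is unknown. A single additional column (1 in all) matched no sample and was left out.

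In all columns but that of control discs at 0 h, whole numbers of at least 1000 ending in 5 were read as values with a lost decimal point and divided by 1000. Log2 ratios used a pseudocount of 1 and genes of at least 3 FPKM in all 6 columns. With 1 value per group no test was possible and a rule of size was used; the limma fit planned for replicate columns was not run. The genes, their rule, the 21 lists and the 10 roles were chosen with earlier results of these data known, so their counts are not independent evidence. The rule for naming took the 12 highest ratios, the 5 highest FPKM, the 5 largest excesses in regenerating and deficits in control discs, members with a scaled ratio of at least 0.9, up to 4 members per list and 3 genes on each side of the limit of 0.9, 58 members in all.

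Symbols were paired with 16912 identifiers and not with 246, and 5 members carry none. Positions come from Ensembl release 115 of BDGP6.54. Promoter motifs were not analysed here. The calculations ran in Python 3.11.15 with pandas 2.3.3, numpy 2.4.6 and matplotlib 3.10.9 and were tested on simulated data. Alternatives were other pseudocounts, scalings, filters and limits.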

Additional observations from a re-analysis of the deposited data

How the results depend on the processing

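The count of 238 genes higher only at 15 h moved with most choices. It was 125 with a pseudocount of 5, of which 94 were among the 238. It was 151 with at least 10 FPKM in all 6 columns, 127 with a ratio of at least 1 at 15 h, 34 with narrower limits at 0 h and 25 h and 8 among genes with no restored decimal point. It was 36 after median-of-ratios scaling, which kept 19 of the 238. Chosen after seeing the data, it was 37 with ratios relative to the median measured gene, of which 17 were shared. Also chosen then, it was 439 without the limit at 0 h and 293 without the limit at 25 h. Among the planned settings it was 265 with a pseudocount of 0.1, of which 210 were shared with the 238. With columns scaled to a sum of 1000000 it was 307, of which 159 were shared, and with no filter 263. The count of 587 genes with a ratio of 0.9 or more at 15 h was 285 with a pseudocount of 5, 75 after median-of-ratios scaling, 1008 with columns scaled to a sum and 378 with at least 10 FPKM. It was 71 relative to the median gene, a setting chosen after seeing the data. The 203 members highest at 15 h in regenerating discs became 150 and the 119 lowest at 15 h in control discs 214 after median-of-ratios scaling. The shift of the median gene, 0.48, 0.39 and 0.08 at 0, 15 and 25 h as deposited, was taken out by that scaling. Of the 58 members named by the rule 20 stayed at 0.9 or more after median-of-ratios scaling, the other 38 lying between 0.52 and 0.89, and 38 did with a pseudocount of 5, the other 20 lying between 0.60 and 0.89. No paired analysis was possible because each group is deposited as 1 merged column without replicates, and for the same reason no replicate could be left out. Depth is unknown, so the precision of low values cannot be given.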
